A study of Mus musculus with 6 samples.

Results

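The ovary library is the shallowest of 6 mouse tissue libraries of RNA 5′ ends, and it is described here by all 27492 lines of its deposited table. It is 1 of the 6 samples, and after reads listed at 2 locations had been left out it held 29213 of the 839877 unique tags, on 23724 distinct ends. Whole ovary of adult BALB-c mice was set against whole brain, lung, liver, kidney and spleen of the same background, with 1 library per tissue and no treatment. Each tag comes from PARE, a method that ligates an adaptor to polyadenylated RNA with a 5′ monophosphate, so a tag marks where a cleaved or decapped RNA begins. The labels give neither the number of animals nor the stage of the oestrous cycle, and nothing separates a difference between tissues from one between single libraries, so no test between tissues was made.

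The other libraries held between 33382 tags (brain) and 493121 tags (lung). Levels are tags per 1000000 unique tags (CPM). A ratio of levels carries an exact conditional binomial 95% interval, and a single level an exact Poisson one. Both cover counting error only, because PCR reads are not independent molecules. A count of 0 allows 3 tags, which is 102.7 CPM in ovary.

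The ovary makes steroid hormones from cholesterol. In the mitochondria Cyp11a1, the side-chain cleavage enzyme, turns cholesterol into pregnenolone with electrons that Fdxr and Fdx1 pass to it, and enzymes of the Hsd3b family turn pregnenolone into progesterone. Granulosa cells also secrete inhibin and activin, and receptors for luteinising hormone and prolactin maintain the corpus luteum. MicroRNAs leave their own kind of end: the nuclease Drosha cuts the hairpin out of a primary transcript, and the polyadenylated remainder begins at the first base after the 3p arm of the hairpin.

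Genes were named by setting deposited tags against RefSeq promoter and microRNA sequences of GRCm38.p6, without converting coordinates. Both neighbouring matches placed 74.4% of the ovary tags in a gene, and 80.1% were named in all. All positions are in mm9 as deposited. The labelled tissue was checked first: Cyp11a1 and Hsd3b1, the marker genes of steroid-making cells, had 117 and 60 ovary tags and no more than 10 in any other library.

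The strongest single end of the ovary library follows a microRNA, and the sequences of that microRNA, of its neighbours on the same transcript and of other precursors named below are shown. The mature arms, from RefSeq GRCm38.p6, are printed with the seed (bases 2 to 8) in capitals. Each 3p arm is followed by a deposited tag of the strongest ovary end within 1 nt of the base after the arm. The sequence with the most copies over the 6 libraries is given, in lower case throughout. The tags shown for miR-214-3p and let-7b-3p begin on the last base of the RefSeq arm. For miR-351-3p the tag most frequent in ovary alone is shown as well.
miR-351-5p: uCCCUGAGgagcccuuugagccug
miR-351-3p: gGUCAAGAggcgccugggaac
tag after miR-351-3p: tggagaagagtgttaaactt
most frequent in ovary after miR-351-3p: tggagaagagtgttaaacttc
miR-503-5p: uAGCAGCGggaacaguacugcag
miR-503-3p: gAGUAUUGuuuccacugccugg
tag after miR-503-3p: gtaagtctgggtcttccacat
miR-322-5p: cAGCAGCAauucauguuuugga
miR-214-3p: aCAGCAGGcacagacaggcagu
tag after miR-214-3p: tcacatgacaacccagcctg
miR-202-3p: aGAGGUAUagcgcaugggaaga
tag after miR-202-3p: tggagcagtgagatcttccc
let-7b-3p: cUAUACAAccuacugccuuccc
tag after let-7b-3p: ctgaggcgcccagggacacag
The seed of miR-351-5p, CCCUGAG, is also that of miR-125a-5p, miR-125b-5p, miR-6367 and miR-6394 in the RefSeq table. let-7b-3p and let-7f-1-3p share the seed UAUACAA.

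One end gave 3.77% of the whole ovary library (interval 3.55 to 3.99). It lay at position 50406452 on the minus strand of chromosome X, and it was exactly the first base after the miR-351-3p arm. Within 1 nt of that base there were 1101 tags in ovary, against 635 in lung, 48 in kidney, 3 in spleen, 11 in liver and 7 in brain. Scaled for depth this was 37689 CPM in ovary and 1288 CPM in lung, the highest of the others, a ratio of 29.3 (interval 26.5 to 32.3). It was 11.1 (10.1 to 12.3) when depth was set by a trimmed mean of M values, which multiplies every ratio over lung by 0.381 and over kidney by 0.382. The ovary library stood above each of the other libraries, and the lung library, with 16.9 times the depth of ovary, above the remaining ones. The ovary tags at this base were of 30 distinct sequences that differed in length or bases, and the most frequent had 538 copies.

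The end falls in the window of C430049B03Rik, the transcript that hosts miR-322, miR-503 and miR-351. Its other hairpins left few tags in ovary. The end after miR-503-3p, 711 nt upstream, had 8 tags in ovary, against 9 in lung, 1 in kidney, 0 in spleen, 0 in liver and 0 in brain, a ratio of 15.005 over lung (interval 5.04 to 43.8). The end after miR-322-3p had 1 ovary tag. Tags that began at the mature start of miR-351-5p numbered 6 in ovary and 93 in lung. By distinct ends the window ratio was 4.30 with an interval that reached below 1 (0.859 to 41.6). Without the lung library the ratio of the whole transcript was 106, against 25.2 with it.

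Along the transcript the levels of ovary and lung differed most at the end after miR-351-3p. At the start of miR-351-5p they were close, at 205 CPM in ovary and 189 CPM in lung, and several ends with 1 or 2 tags were found in 1 of the libraries only.

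**Figure D1:**
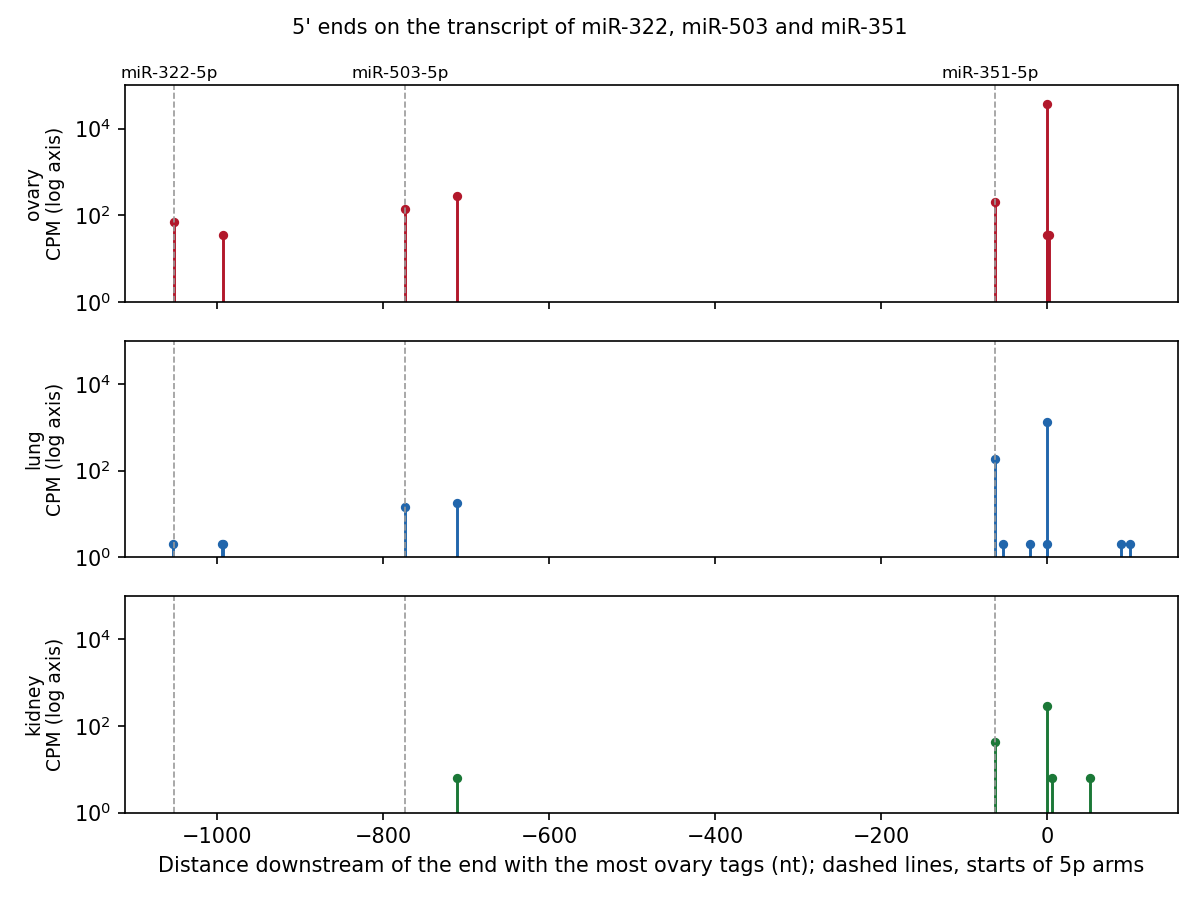
Level in CPM (log axis) at each 5′ end of the host transcript of miR-322, miR-503 and miR-351, in ovary (top), lung and kidney, by distance in nt downstream of the end after miR-351-3p; dashed lines mark the first bases of the 5p arms, and each stem is 1 end. The stem at 0 reaches 37654 CPM in ovary, 1286 CPM in lung and 296 CPM in kidney, while the stem after miR-503 reaches 274 CPM in ovary and 18.3 CPM in lung.

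Ends after 3p arms were counted for 536 microRNAs placed by RefSeq hairpins. In ovary 36 of them had a tag within 1 nt of that end. Of the 1455 ovary tags from 60 nt before to 60 nt after a placed hairpin, 1326 lay there (91.1%, interval 89.6 to 92.5), although these bases make up 1.67% of the bases searched. Without miR-351 it was 225 of 347 tags (64.8%, interval 59.6 to 69.9), against 67.1% in lung, 22.5% in kidney, 58.4% in spleen, 32.2% in liver and 32.5% in brain. As a share of all tags, ends after 3p arms made up 4.54% of the ovary library, against 0.747% in lung, 0.313% in kidney, 0.144% in spleen, 0.100% in liver and 0.255% in brain. Hairpins on chromosome 18 were not analysed here. Without miR-351 the shares were 0.770% in ovary (interval 0.673 to 0.877) and 0.619% in lung (0.597 to 0.641), and between 0.0861% and 0.283% in the other 4 libraries.

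Of the 10 such ends with the most ovary tags, 4 stood above the highest other library by more than counting error. Beside miR-351 and miR-503 these were miR-214 and miR-202. The 10 were picked by their ovary tags, which favours ovary, so 4 of 10 is no share over all precursor ends. Among the 36 ends with an ovary tag, miR-138-1 also had a lower bound above 1 (1.22), from only 2 tags each in ovary and lung. The end after miR-214, a microRNA made from the Dnm3os transcript of mesenchymal cells, had 28 tags in ovary, against 70 in lung, 13 in kidney, 0 in spleen, 0 in liver and 0 in brain. It was 6.75 times as high as in lung (interval 4.19 to 10.6), and all of its ovary tags began 1 nt inside the RefSeq arm, so that a count at the exact base gives 0. The end after miR-202, a microRNA of the gonads, had 6 tags in ovary and 1 in kidney and was at 0 in the remaining libraries (ratio 33.3, interval 4.04 to 1533).

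The other precursor ends of the 10 did not separate ovary upwards from the rest. let-7b, with 72 tags in ovary against 1076 in lung, gave a ratio of 1.13 (0.877 to 1.43), which was 0.430 (0.334 to 0.546) with the trimmed mean and 0.945 with the median of ratios. let-7f-1 had 28 in ovary and 487 in lung (0.971, 0.638 to 1.42). miR-135a-2 had 8 tags in ovary, against 3 in brain and 1 in lung (ratio 3.05 over brain, interval 0.731 to 17.8), and miR-24-1 had 7 in ovary and 9 in brain (0.889, 0.281 to 2.68). Ovary lay below the leading library for miR-24-2 (11 tags in ovary, 402 in lung; ratio 0.462, 0.229 to 0.835). It also did for miR-142a, a microRNA of blood cells (6 in ovary, 31 in spleen; 0.284, 0.0970 to 0.692). Ends on chromosome 18 were not named here, and the one at position 61807482 on the minus strand had 53 ovary tags, against 100 in lung, 36 in kidney, 0 in spleen, 0 in liver and 0 in brain (ratio 8.18 over kidney, interval 5.26 to 12.9).

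**Figure D2:**
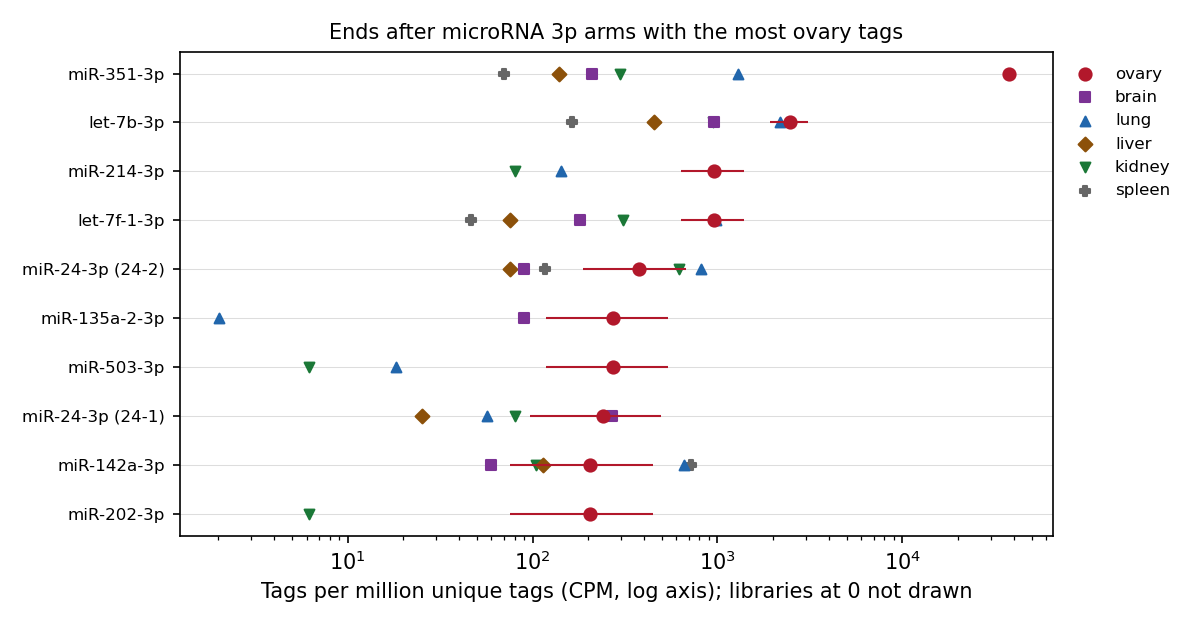
Level in CPM (log axis) of the 10 ends after microRNA 3p arms with the most ovary tags, 1 row per microRNA and 1 symbol per library, with 95% Poisson bars for ovary; libraries at 0 are not drawn. The ovary point lies to the right of all others for miR-351, miR-214, miR-135a-2, miR-503 and miR-202, narrowly so for let-7b, whose ratio is below 1 with other scalings of depth, and the bar is wide below about 10 tags.

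Windows of 2 kb on each strand show what else was high in ovary. Of 66 windows with at least 20 ovary tags, 20 (30.3%) were led by ovary, meaning that the lower bound of the ratio over the highest other library exceeded 1. Windows entered by their ovary tags alone, which favours ovary, so 30.3% is no share over all windows. With no minimum, 258 of 13857 windows were led. The 20 led windows held 2311 ovary tags, or 7.91% of the library (interval 7.60 to 8.23), of which the miR-351 window gave 48.6%. All 20 also stood above each of the 5 other libraries, or above what a 0 there allows. The lead over the highest of them largely fixes this outcome. A 0 in another library allows at most 89.9 CPM (brain), which every led window exceeded by its minimum of tags. The lowest lower bound among the led windows was 1.01 (Tsc22d1) and the highest among the others 0.960 (Tpt1-ps3). With the trimmed mean scaling the 10 windows with the largest lower bounds were still led and the other 10 were not.

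**Figure D3:**
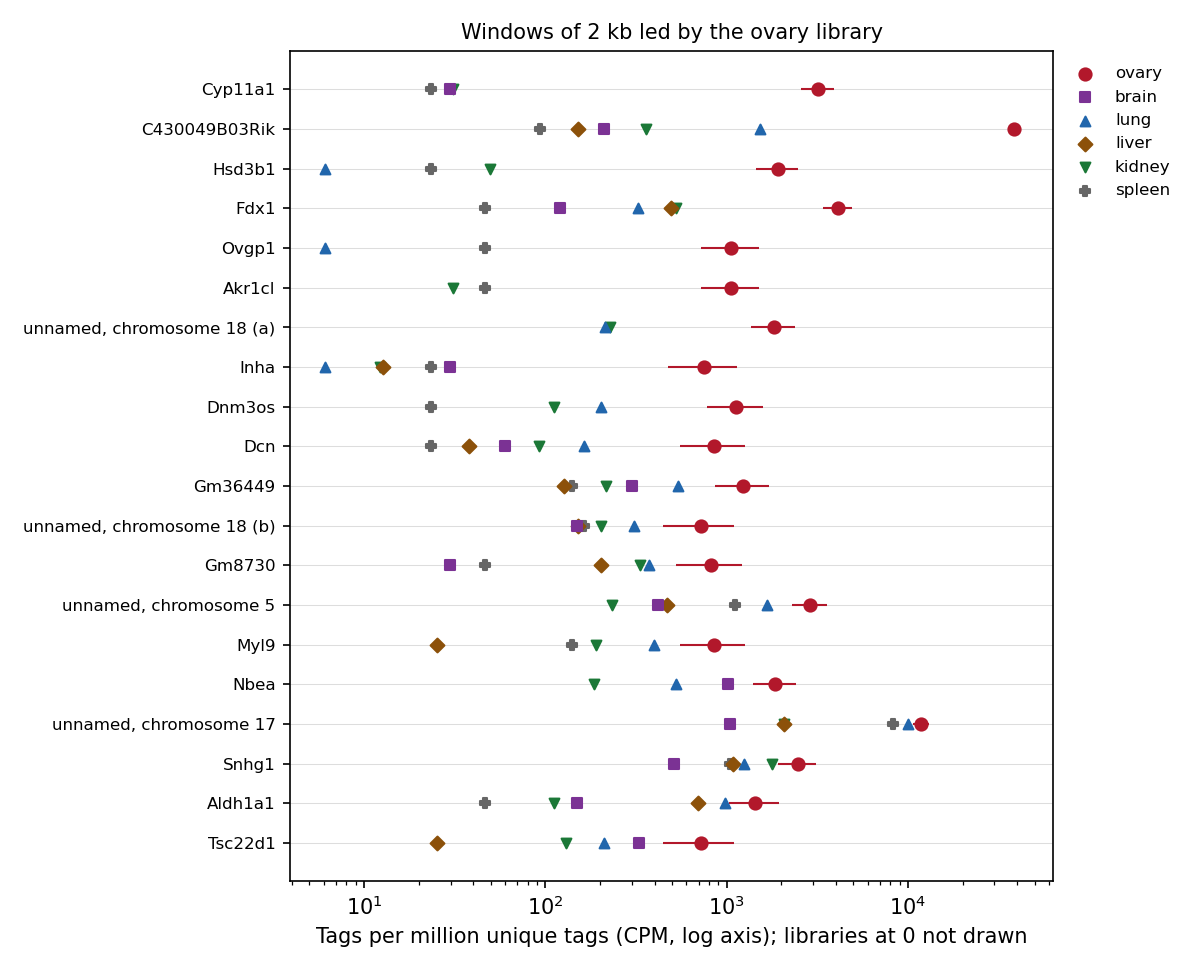
CPM (log axis) of each library in the 20 windows led by ovary, from the largest lower bound of the ratio at the top to the smallest at the bottom, with 95% Poisson bars for ovary; libraries at 0 are not drawn. Ovary is 103 times as high as the next library for Cyp11a1 and 25.2 times for the window of C430049B03Rik, and the gap nearly closes in the lowest rows.

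Steroid synthesis gave the clearest protein-coding signal. Cyp11a1 had 117 tags in ovary, against 1 in lung, 10 in kidney, 1 in spleen, 0 in liver and 2 in brain. At 4005 CPM in ovary and 61.6 CPM in kidney the ratio was 65.0 (interval 34.1 to 139). These tags lay on 92 distinct ends, 89 of them found in ovary alone, with no more than 3 tags on any of them, and 90.6% began within the last 2 kb of the stretch of ends. In bulk tissue more cells of a type and more RNA per cell cannot be told apart, nor can more RNA and faster decay.

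Hsd3b1 followed with 60 tags in ovary, against 3 in lung, 8 in kidney, 1 in spleen, 0 in liver and 0 in brain (ratio 41.7 over kidney, interval 19.8 to 101). Akr1cl, a gene of the aldo-keto reductase family, had 71 tags in ovary, 0 in lung, 15 in kidney, 2 in spleen, 0 in liver and 1 in brain (ratio 26.3 over kidney, 14.9 to 49.4). Both belong to families of similar genes whose tags the authors' unique placement could divide unevenly. In all 3 genes the ovary count was higher than the summed tags of the other libraries, although those are up to 16.9 times as deep.

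The electron carriers were high as well. Fdx1 had 136 tags in ovary, against 192 in lung, 111 in kidney, 3 in spleen, 43 in liver and 4 in brain (ratio 6.81 over kidney, interval 5.26 to 8.83). Unlike Cyp11a1, it owed 75.0% of its ovary tags to 1 end, at position 51751668 on the minus strand of chromosome 9. There ovary had 102 tags, against 140 in lung, 74 in kidney, 2 in spleen, 29 in liver and 4 in brain, so the same base was the main end of the gene in lung and kidney too. Its tag, shown because it is an end that all 6 libraries share, was:
tag at the main Fdx1 end: agtctgttgacatgagcaag
Without that end the ratio was 5.10 (interval 3.11 to 8.36). Fdxr, the reductase that feeds Fdx1, had 9 tags in ovary, 9 in lung, 5 in kidney, 1 in spleen, 1 in liver and 1 in brain (ratio 9.998 over kidney, interval 3.01 to 38.0). Soat1, which esterifies cholesterol for storage, had 14 tags in ovary, 39 in lung, 3 in kidney, 2 in spleen, 0 in liver and 2 in brain (ratio 6.06 over lung, 3.04 to 11.4).

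Across the 17 genes listed for the path from cholesterol to steroids, 16 could be placed and 12 had at least 10 tags over the 6 libraries. Of these 12, 6 were at least 2-fold above the highest other library in ovary, namely Cyp11a1, Fdx1, Fdxr, Hsd3b1, Akr1cl and Soat1. Among all 9339 genes with at least 10 tags 7.86% reached this level. The median ratio was 3.71 for the list and 0.393 for all such genes. This and the other lists were chosen with earlier results of these data known. Cyp11a1 and Hsd3b1 are also the markers used to check the tissue, so the comparison describes the listed genes and is no test. The other members with at least 10 tags did not reach 2-fold. Akr1c18, which inactivates progesterone, had 2 tags in ovary and 45 in kidney (ratio 0.247). Por, which supplies electrons to microsomal P450 enzymes, had 2 in ovary and 46 in kidney (0.242). Lipe, a lipase that frees cholesterol from its esters, was at 0 in ovary. Cyp17a1, Hsd17b7 and Scarb1 had ratios between 1.16 and 1.35 from 3 or 4 ovary tags each. The intervals were wide, 0.193 to 5.07 for Cyp17a1 and Scarb1 and 0.298 to 5.04 for Hsd17b7. Cyp19a1 and Hsd17b1, the aromatase and an estradiol-forming enzyme of granulosa cells, had 1 and 2 ovary tags and none elsewhere, and Star was not placed and is not reported.

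Of the 17 genes listed for the supply of cholesterol, 13 could be placed and all had at least 10 tags. None was 2-fold above the highest other library in ovary, 9 were at 0.5 times its level or below, and the median ratio was 0.327. Among all 9339 genes 7.86% were at least 2-fold above. Their median was 0.393, so most of them were also at 0.5 times the highest other library or below. These 13 genes lay near the background. Apoe, the lipoprotein that carries cholesterol between cells, had 29 tags in ovary, against 747 in lung, 334 in kidney, 92 in spleen, 2120 in liver and 57 in brain. Npc2, which moves cholesterol out of lysosomes, had 11 tags in ovary, against 471 in lung, 31 in kidney, 5 in spleen, 13 in liver and 6 in brain (ratio 0.394 to lung, interval 0.195 to 0.712).

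The Apoe window was 1 of the 2 windows of 79112 (0.00253%) in which ovary was the lowest of the 6 libraries and below the next lowest by more than counting error. Intervals against the remaining libraries were not computed. It had 29 tags in ovary, 731 in lung, 315 in kidney, 91 in spleen, 2041 in liver and 53 in brain, and the ratio to lung, the next lowest, was 0.670 (interval 0.445 to 0.970). The other was that of Scgb1a1, a secreted protein of airway club cells, with 1 tag in ovary, 21 in brain and 32937 in lung. At this depth few windows could show a low ovary level.

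Several hormone subunits and receptors were higher in ovary than elsewhere. Inha, the alpha subunit of inhibin, had 24 tags in ovary, 3 in lung, 2 in kidney, 1 in spleen, 1 in liver and 1 in brain (ratio 27.4 over brain, interval 4.47 to 1128). Inhba, the beta subunit of activin A, had 7 in ovary, 3 in lung and 1 in liver and was at 0 elsewhere (18.9 over liver, 2.43 to 853). Lhcgr, the receptor of luteinising hormone, had 13 in ovary, 1 in lung and 1 in kidney (72.2 over kidney, 10.8 to 3069). It was placed by a single match more than 1 Mb away, a way of placing that was right for 92.9% of matches left out in turn.

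Nr5a2, a nuclear receptor of granulosa and luteal cells, had 11 tags in ovary, 0 in lung, 1 in kidney, 1 in spleen, 4 in liver and 0 in brain (ratio 7.43 over liver, interval 2.20 to 32.0). Prlr, the prolactin receptor, had 20 in ovary, 13 in lung, 45 in kidney, 0 in spleen, 22 in liver and 1 in brain (2.46 over liver, 1.27 to 4.72), and the ratio was 0.943 with the trimmed mean scaling. Of the 17 genes of this list 16 were placed and 10 had at least 10 tags, and 7 of these were at least 2-fold above the highest other library, with Fst and Ptgfr as the members whose interval reached below 1. The median ratio was 5.51, against 0.393 among all 9339 genes, of which 7.86% were at least 2-fold above. The minimum of 10 tags includes those of ovary. Inha, Inhba, Lhcgr, Nr5a2, Fst, Ptgfr and Pgr had fewer than 10 in the other libraries together and entered only through ovary. The count and the median thus depend on that filter, describe the listed genes and are no test. The receptors Pgr and Esr1 gave ratios of 1.14 and 0.286, each with an interval across 1, Fshr and Esr2 had 3 ovary tags each, and Amh was at 0 in all libraries. Like Lhcgr, the genes Pgr, Esr1 and Fshr were placed by a match more than 1 Mb away, and Prlr and Fst by the nearest match alone.

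**Figure D4:**
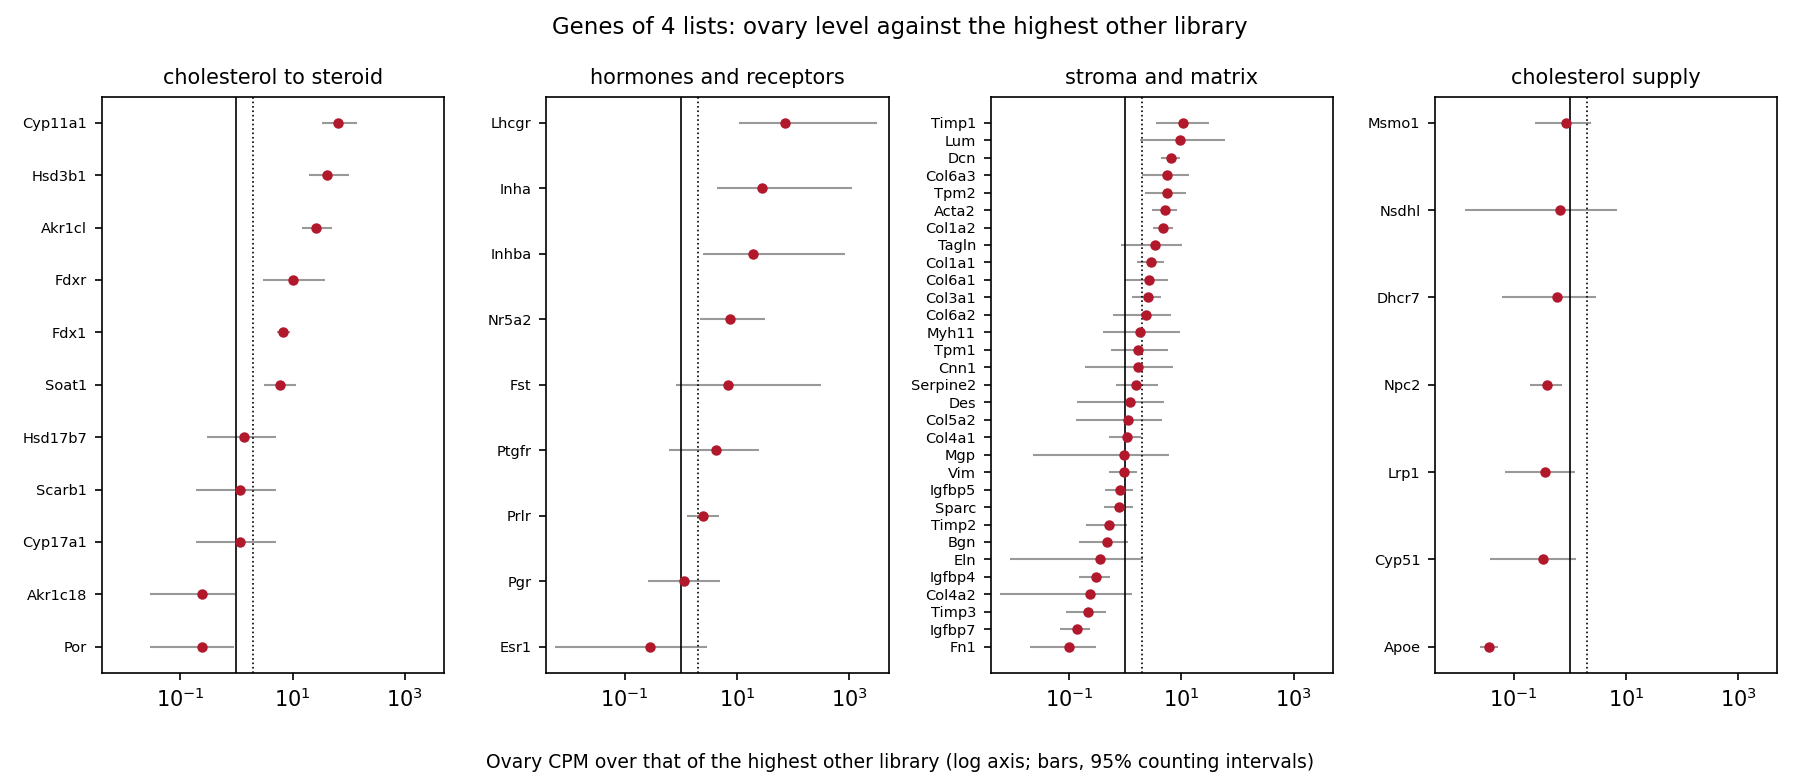
Ovary CPM over that of the highest other library (log axis, 95% counting intervals) for the genes of 4 lists with at least 10 tags in all and at least 1 in ovary, without those not reported here; the solid line marks equal levels and the dotted line 2-fold. Cyp11a1 at 65.0 and Lhcgr at 72.2 lie farthest to the right, while the cholesterol supply genes lie around or left of the solid line.

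The genes listed for stroma, smooth muscle and matrix were mixed. All 32 could be placed and had at least 10 tags. Of these, 12 were at least 2-fold above the highest other library in ovary. Another 8 were at 0.5 times its level or below, and the median ratio was 1.38. Among all 9339 genes 7.86% were at least 2-fold above, and the median was 0.393. Most of all genes were thus at 0.5 times or below, a larger part than in this list. Dcn, the proteoglycan decorin, had 39 tags in ovary, 103 in lung, 28 in kidney, 1 in spleen, 6 in liver and 5 in brain (ratio 6.39 over lung, interval 4.30 to 9.32). Col1a2, a chain of type I collagen, had 33 in ovary, 118 in lung, 29 in kidney, 3 in spleen, 1 in liver and 4 in brain (4.72, 3.11 to 7.00), and Acta2, smooth muscle actin, had 21 in ovary and 69 in lung (5.14, 2.99 to 8.48). In each of these the lung library was the next highest. Dcn was placed by its nearest match alone, and Col1a2 by a match more than 1 Mb away.

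Timp1, an inhibitor of matrix proteases, had 7 tags in ovary against 11 in lung, a ratio of 10.7 (interval 3.53 to 30.3), and Col6a3 had 7 in ovary and 21 in lung (5.63, 2.02 to 13.7). Other members of the list were near or below the highest other library. Col4a1, a chain of type IV collagen, had a ratio of 1.05 (interval 0.514 to 1.92), and Fn1, fibronectin, had 3 tags in ovary and 83 in liver (0.0977, 0.0197 to 0.296). Igfbp7 and Timp3 were far below kidney (0.136 and 0.217). With the trimmed mean scaling 5 of the 32 genes were at least 2-fold above the others, and the ratio of Col3a1 was 0.945. Without the lung library the ratios were 18.9 for Timp1, 12.96 for Col6a3, 8.33 for Col3a1 and 4.998 for Col1a1, against 10.7, 5.63, 2.48 and 2.90 with it.

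Other genes led by ovary lay outside the lists. Of 72 genes with at least 20 ovary tags 24 (33.3%) were led, and these genes too entered by their ovary tags. Ovgp1, a glycoprotein secreted by the oviduct, had 55 tags in ovary, 3 in lung, 1 in kidney, 3 in spleen, 0 in liver and 0 in brain (ratio 26.9 over spleen, interval 8.75 to 135). Greb1, an estrogen-responsive gene, had 20 in ovary, 1 in lung and 4 in kidney and was at 0 in the remaining libraries (27.8 over kidney, 9.30 to 112). Plet1 had 21 in ovary, 33 in lung, 1 in liver and 18 in kidney (6.48 over kidney, 3.29 to 12.9), and Acsbg1, an acyl-CoA synthetase, had 22 in ovary and 7 in brain (3.59, 1.48 to 9.95). Aldh1a1, which makes retinoic acid from retinal, had 91 in ovary, 562 in lung, 31 in kidney, 3 in spleen, 75 in liver and 7 in brain (2.73 over lung, 2.17 to 3.42), and 1.04 with the trimmed mean scaling.

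For the remaining led genes the lead was small and depended on how depth was scaled. Myl9, Idh1, Rps16, Snhg1, Gm8730, Gm36449 and Tpt1-ps3 had ratios between 1.38 and 2.35, and all were below 1 with the trimmed mean scaling. Without the lung library Myl9 had a ratio of 4.25 and Gm36449 of 4.23, against 2.19 and 2.35 with it. Tsc22d1 had 26 ovary tags and a ratio of 2.29 over brain. Gm8730, Gm36449 and Tpt1-ps3 may share reads with near-identical copies elsewhere in the genome. The led windows without a name, apart from the one with the chromosome 18 end given above, were on chromosomes 17 (345 ovary tags, 4957 in lung), 5 (84 and 820) and 18 (21 and 152).

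The led genes differed in how their tags were spread. Cyp11a1, Akr1cl, Ovgp1, Inha and Dcn had between 1.08 and 1.27 tags per distinct end. C430049B03Rik had 125 tags per end, Dnm3os 8.25, Snhg1 4.28, Fdx1 4.12 and Gm36449 4.11. For Dnm3os 28 of 33 tags lay at the end after miR-214, and without that end its ratio was 2.72 with an interval that reached below 1 (0.827 to 7.06). With all its tags the ratio was 5.57, and 10.2 without the lung library. Counting distinct ends in place of tags, Cyp11a1, Hsd3b1, Akr1cl, Ovgp1, Inha, Dcn and Fdx1 were still above the highest other library.

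**Figure D5:**
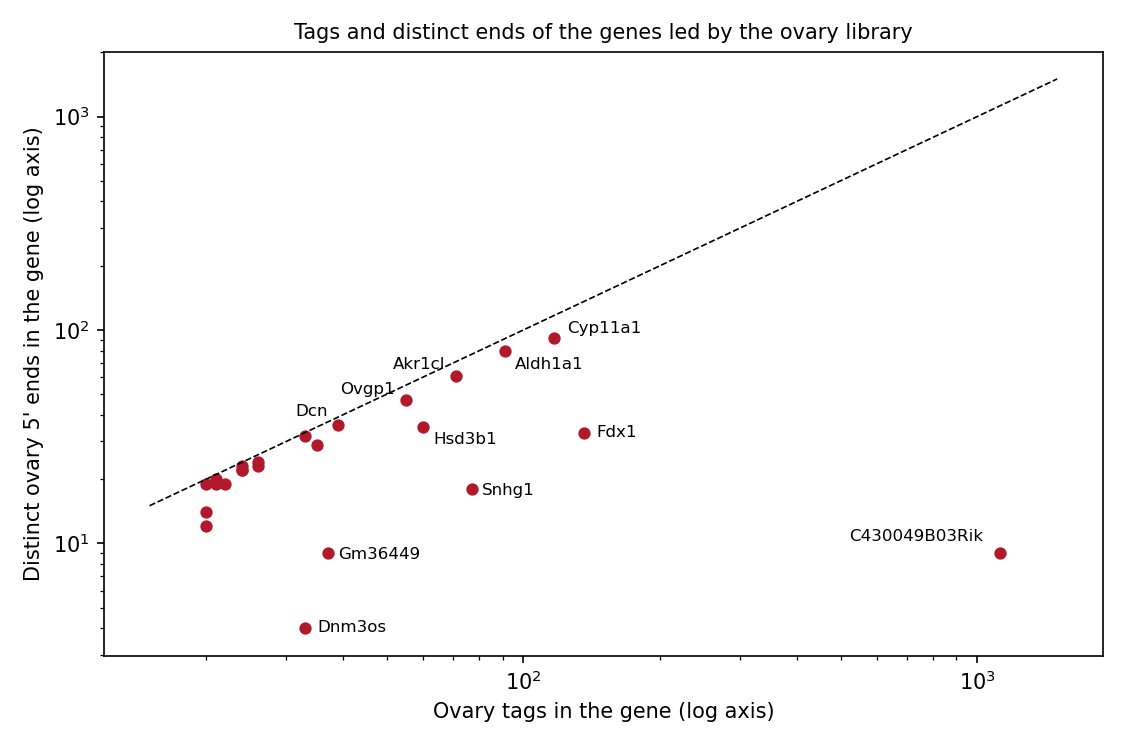
Ovary tags (log axis) against distinct ovary 5′ ends (log axis) of the 24 genes led by ovary, 1 point per gene; on the dashed line every tag has an end of its own. Cyp11a1, with 117 tags on 92 ends, lies near the line, and Fdx1 (136 on 33), Dnm3os (33 on 4) and C430049B03Rik (1124 on 9) lie below it.

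Single ends that held at least 20 tags and at least 50% of their window numbered 25 in ovary. Of these, 7 were above the highest other library by more than counting error, 12 were below it, and 22 were found in all 6 libraries. For comparison, 30.3% of the windows with at least 20 ovary tags were led by ovary, and their median ratio was 0.904. How many of those windows lay below the highest other library was not counted. The 12 ends below and the 22 shared ends are therefore not read as a trait of such ends. The second strongest ovary end, at position 24619958 on the minus strand of chromosome 1, had 716 tags in ovary, 5314 in lung, 12279 in kidney, 18 in spleen, 602 in liver and 1267 in brain (ratio 0.324 over kidney, interval 0.300 to 0.349). The end in Hmg20b had 348 in ovary and 8969 in lung (0.655, 0.587 to 0.729), and that in Mtch1 80 in ovary and 727 in kidney (0.611, 0.479 to 0.771). The end in Nbea at position 55429627 on the minus strand of chromosome 3 was higher in ovary, with 33 tags against 159 in lung, 16 in kidney, 0 in spleen, 0 in liver and 11 in brain (ratio 3.43 over brain, interval 1.69 to 7.52). Of the 15 windows with the most ovary tags 6 were led by ovary. The others included Tmsb4x, an actin-binding protein gene with 65 tags in ovary and 318 in spleen. Another, on chromosome 19, had 59 tags in ovary and 1165 in brain, and part of it was named Cstf2t. Its main end, with 50 of the ovary tags and 970 of the brain tags, was not placed in a gene. Below the highest other library were also 2410006H16Rik (163 in ovary, 488 in spleen), Lncppara (131 in ovary, 1116 in kidney), Rpp25l (62 in ovary, 147 in spleen) and an unnamed window of chromosome 5 (82 in ovary, 1905 in lung). The tag of the Nbea end is shown because no table names the RNA that begins there.
tag at the main Nbea end: catagatgtacatatcgtgt

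Most distinct ends of the ovary library were not seen at the same base in another library. At this depth 77.3% of its tags were alone at their end, and the same shares of other libraries were not compared. Of its distinct ends 25.6% (interval 25.1 to 26.2) were found in any other library, as were 38.2% of its tags. With every library thinned to the ovary total the shares were 10.5% of ends and 24.8% of tags. Each thinned library alone held between 2.92% and 4.60% of the ends, lung the most. Over 2 kb windows with at least 10 tags in the thinned libraries, the log2 level of ovary correlated with that of lung at Pearson r = 0.355, brain 0.318, kidney 0.225, spleen 0.155 and liver 0.0364 across 3019 windows. These windows are not independent, and the values describe these libraries.

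Markers of other cells were read beside these results. All 7 fibroblast and smooth muscle markers had tags in ovary, and their summed level was 4587 CPM in ovary, against 1061 CPM in lung and 127 to 505 CPM in the other 4 libraries. They are a part of the stroma and matrix list, which was mixed. Its 32 genes summed to 10749 CPM in ovary, against 6475 CPM in lung and 1956 to 6914 CPM in the other 4. Dcn (39 ovary tags) was placed by its nearest match alone and Col1a2 (33) by a far one. The 10 oocyte genes had 7 ovary tags in all, with Zp1, Zp3, Gdf9, Oosp1 and Dppa3 at 0. Their summed level was 240 CPM in ovary, against 38.0 CPM in liver to 89.9 CPM in brain among the others. Endothelial markers had 3 ovary tags (103 CPM in ovary, 560 CPM in lung), and those of macrophages and lymphocytes 1, with Lyz2 and Ptprc at 0. The globin genes placed, Hba-a1 and Hba-a2, were at 0 in ovary. Adipocyte markers had 10 ovary tags, 8 of them of Cfd, those of theca cells 3 and those of granulosa cells 41, of which 24 were of Inha. The summed granulosa level was 1403 CPM in ovary, against 6.08 CPM in lung to 63.3 CPM in liver among the others. The 7 epithelial and oviduct markers had 70 ovary tags, 55 of them of Ovgp1.

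Tags of genes typical of other organs were present in ovary in small number. The 5 liver markers had 18 tags, 12 of them of Alb, or 616 CPM in ovary against 154702 CPM in liver. The 3 kidney markers had 31 tags, 22 of them of Gpx3, or 1061 CPM in ovary against 73279 CPM in kidney. Lung markers had 2 tags, and the brain and spleen markers placed were at 0. Their part in the results was not tested. Ovgp1, the oviduct marker, is itself among the genes that ovary led.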

How the data were processed

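PARE tags of polyadenylated RNA from 6 adult mouse tissues, 1 library each, were aligned with Bowtie to mm9, per the submitters' processing notes. Version and settings were not given in the sources used. Each deposited line gives a tag, its location and, as the authors deposited it, the read count of that sequence, which was used as the tag count. The deposited score equals 70 per read up to a ceiling in 100% of lines and was not used. Reads at 2 locations (11.2% of the ovary tags) were left out. The 5′ end was the first base on the plus strand and the last on the minus strand. Tags were summed per strand in windows of 2 kb and scaled to 1000000.

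No genome of mm9 was used. Tags with an exact 20-base match at 1 place to RefSeq promoter or hairpin sequences (3648 matches, GRCm38.p6) tied both builds together. A tag was named where the spacing on both sides put it inside a gene, which was right for 3090 of 3092 matches left out in turn, otherwise by the nearest match within 1 Mb (99.3%). Genes of the lists were also placed by a match within 3 Mb, a step chosen after the data had been seen. Levels of genes are not corrected for length, so they are compared between libraries only.

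Names were taken from the windows led by ovary, the 15 windows and 10 precursor ends with the most ovary tags, ends with at least 20 tags and 50% of their window, and the genes of the lists. Some list genes count in the totals of their list but are not reported here by name. Members and lists were chosen with earlier results of these data known. The procedure was checked on simulated data. Python 3.11.15, pandas 2.3.3 and scipy 1.17.1 were used.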

Additional observations from a re-analysis of the deposited data

Results flagged for a closer look

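Reads listed at 2 locations were outside the counts above, and in ovary they came to 3682 over all listed lines, above the 3 that a count of 0 allows. Their strongest windows held 69 ovary reads each, 1 on chromosome 17 from 39982001 (plus strand) and 1 on chromosome 16 from 18532001 (minus strand). The first is placed in Rn18s-rs5, and both had 305 reads in liver, a ratio of 0.594 for ovary. In none of the 15 windows with at least 20 such ovary reads was ovary above the highest other library by more than counting error.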

How the results depend on the processing

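No paired analysis was possible because each tissue has 1 library. The 20 windows led by ovary were 10 when depth was set by a trimmed mean of M values, 258 with no minimum of tags, 56 with a minimum of 10 tags and 12 counted by distinct ends, of which 9 were among the 20. They numbered between 14 and 27 with the median of ratios, other window widths or offsets, reads at 2 locations kept, lung or brain left out, or all libraries thinned to the ovary total. The trimmed mean multiplies ratios over lung by 0.381, over kidney by 0.382, over liver by 0.482, over brain by 0.943 and over spleen by 0.921, and the cause of these factors was not tested. With it 5 genes of the stroma and matrix list were at least 2-fold above the highest other library, not 12, while the counts of the other 3 lists stayed within 1.5 times under every setting. Of 34 gene ratios, those of Gm36449 (0.894), Myl9 (0.835), Gm8730 (0.838), Prlr (0.943), Idh1 (0.760), Rps16 (0.739), Snhg1 (0.525), Tpt1-ps3 (0.580) and Col3a1 (0.945) were below 1 with the trimmed mean, and those of Snhg1 (0.883) and Tpt1-ps3 (0.975) also with the median of ratios. Another 5 no longer exceeded counting error with the trimmed mean, 5 with the median of ratios, 5 by distinct ends and 3 without the strongest ovary end, the last an alternative chosen after the data had been seen. Leaving out lung or keeping reads at 2 locations kept all 34 above 1 by more than counting error, but without lung 8 of them, given above, were over 1.5 times as high, the most for C430049B03Rik (106, against 25.2). For let-7b the precursor ratio was 0.430 with the trimmed mean and 0.945 with the median of ratios, and for miR-214 it was 0 at the exact base. The 10 strongest ends held 10.1% of the ovary tags, 8.96% with reads at 2 locations kept and 6.82% without the strongest end, and the led windows 7.91%, 7.36% and 4.31%. Ends shared with any other library were 25.6% of distinct ends and 38.2% of tags, and 10.5% and 24.8% after thinning. The ovary depth limits what can be seen: 13857 of the 79112 windows with a tag had one in ovary, and 66 reached 20.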

Other observations

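The first base of an ovary tag was T in 34.6% of tags, A in 32.0%, C in 23.5% and G in 9.86%. Counted by distinct ends the shares were 33.4%, 30.3%, 26.3% and 10.1%. Tags that were alone at their end made up 77.3% of the ovary library, a share that depends on depth. With all libraries thinned to the ovary total there were 23724 distinct ends in ovary, against 21911 in lung, 22415 in kidney, 18572 in spleen, 19228 in liver and 24568 in brain.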
